A study of Bos taurus with 10 samples.

Results

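The collagen genes of the bovine corpus luteum were examined: all genes whose symbol has the form COL, number, A, number and that a probeset of the array names alone. This gave 42 genes of 18010 named by a single symbol. They were measured by 43 probesets, COL5A1 having a pair, of which the brighter one over the 10 arrays was kept. By the structure of the protein, 11 chains are fibrillar, 9 belong to basement membranes and their anchoring zone, and 22 are of other types (5 of the beaded filament type VI, 8 fibril-associated, 3 short-chain network, 4 membrane-spanning, and COL26A1 and COL28A1). COL9A1 and COL9A2 were not analysed here.

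Corpora lutea were collected from cows (Bos taurus) on day 7 of the estrous cycle, 5 labelled MIX and 5 labelled ISe, the names the labels give to the forms of selenium supplemented to the cows. The series has no unsupplemented group, and the labels name no strain, age, pooling or cow for a sample. Each sample's total RNA went onto an Affymetrix whole-transcript array of its own. Precision is therefore limited by 5 arrays a group, and the p-values refer to differences among these samples, which may be technical. Values are log2 signal per probeset as the authors deposited them, and a difference is MIX minus ISe on that scale with its standard error (SE) from limma, a linear model with moderated variances fitted over all 19145 probesets that carry a gene symbol. Because signal depends on the probes, levels are compared between arrays for a gene and not between genes.

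Collagens are trimers of chains wound into a triple helix. Fibrillar types I, III and V build the cables that give tissue its strength, type IV forms the sheet-like network of basement membranes under endothelium and epithelium, and type VI forms beaded filaments that link cells to the fibrils around them. The corpus luteum grows from the ruptured follicle, whose basement membrane is dissolved while vessels and fibroblasts from the theca invade the former granulosa layer, so matrix is laid down as the gland is built. Several collagen genes lie side by side: in the RefSeq cattle gene table (ARS-UCD2.0), COL4A1 neighbours COL4A2, COL4A3 neighbours COL4A4, COL4A5 neighbours COL4A6, COL6A1 neighbours COL6A2, COL6A5 neighbours COL6A6 and COL3A1 neighbours COL5A2.

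No collagen gene differed between MIX and ISe past an adjusted p of 0.05 by limma with Benjamini-Hochberg adjustment, and neither did any other probeset (0 of 19145, 0%), where the smallest adjusted p over all probesets was 0.809 and the smallest for a collagen gene 0.941. At an unadjusted p under 0.05, 4 of the 42 collagen genes were found, 2 higher in MIX (COL8A1 and COL10A1) and 2 lower (COL20A1 and COL21A1). Over all probesets 4.79% had such a p, 2.67% higher and 2.12% lower in MIX. None of the 42 genes had groups that did not overlap, against 0.642% of all probesets. Means were lower in MIX for 31 of the 42 genes and higher for 11, with a median difference of -0.08 log2, whereas over all probesets 49.6% were lower and the median difference was 0.001. Leaving out MIX 9 made the 11 into 17. Since some collagen chains varied together from array to array, as described for several fibrillar chains, the 31 are not all separate observations. Over the 861 pairs of collagen genes the median Pearson's r was 0.03. Of these pairs, 26 (3.02%) had r above 0.8, against 0.454% of all pairs of probesets.

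Of the luteal steroidogenic markers, 5 of 9 measured had a higher mean in MIX and 4 a lower one (median 0.02 log2, 0 at an unadjusted p under 0.05). CYP11A1, the enzyme that begins steroid synthesis, averaged 12.99 ± 0.03 in MIX and 13.01 ± 0.04 in ISe (log2 signal, SD, n = 5 each). HSD3B1, the last enzyme before progesterone, averaged 13.34 ± 0.02 in MIX and 13.33 ± 0.02 in ISe. NR5A1, with the smallest p of the list, had a difference of -0.26 ± 0.13 log2 (limma, unadjusted p = 0.0762). Array medians lay between 5.99 and 6.04. Over all probesets, 49.6% had a lower mean in MIX, and at an unadjusted p under 0.05 2.67% were higher and 2.12% lower. Of the macrophage markers, 13 of 13 measured had a higher mean in MIX, 11 of them at an unadjusted p under 0.05 and 0 after adjustment over all probesets. Their median difference was 0.50 log2, and the per-array list means, taken as deviations from each gene's own mean, were 0.09 to 0.37 in MIX and -0.46 to 0.02 in ISe. Endothelial markers were higher in MIX for 14 of 14 (median 0.16, 1 at an unadjusted p under 0.05), and 12 of 12 markers of dividing cells were lower (median -0.21, 1 at that p), with MIX 8 at a list mean of -0.57 and the other arrays between -0.10 and 0.26. Fibroblast markers were higher for 8 of 12 (median 0.03) and pericyte and smooth muscle markers for 7 of 10 (median 0.04), with 0 at that p in either list. What part these cell types had in the collagen values was not tested. In bulk tissue, fewer cells of a type and less RNA per cell cannot be told apart.

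**Figure D1:**
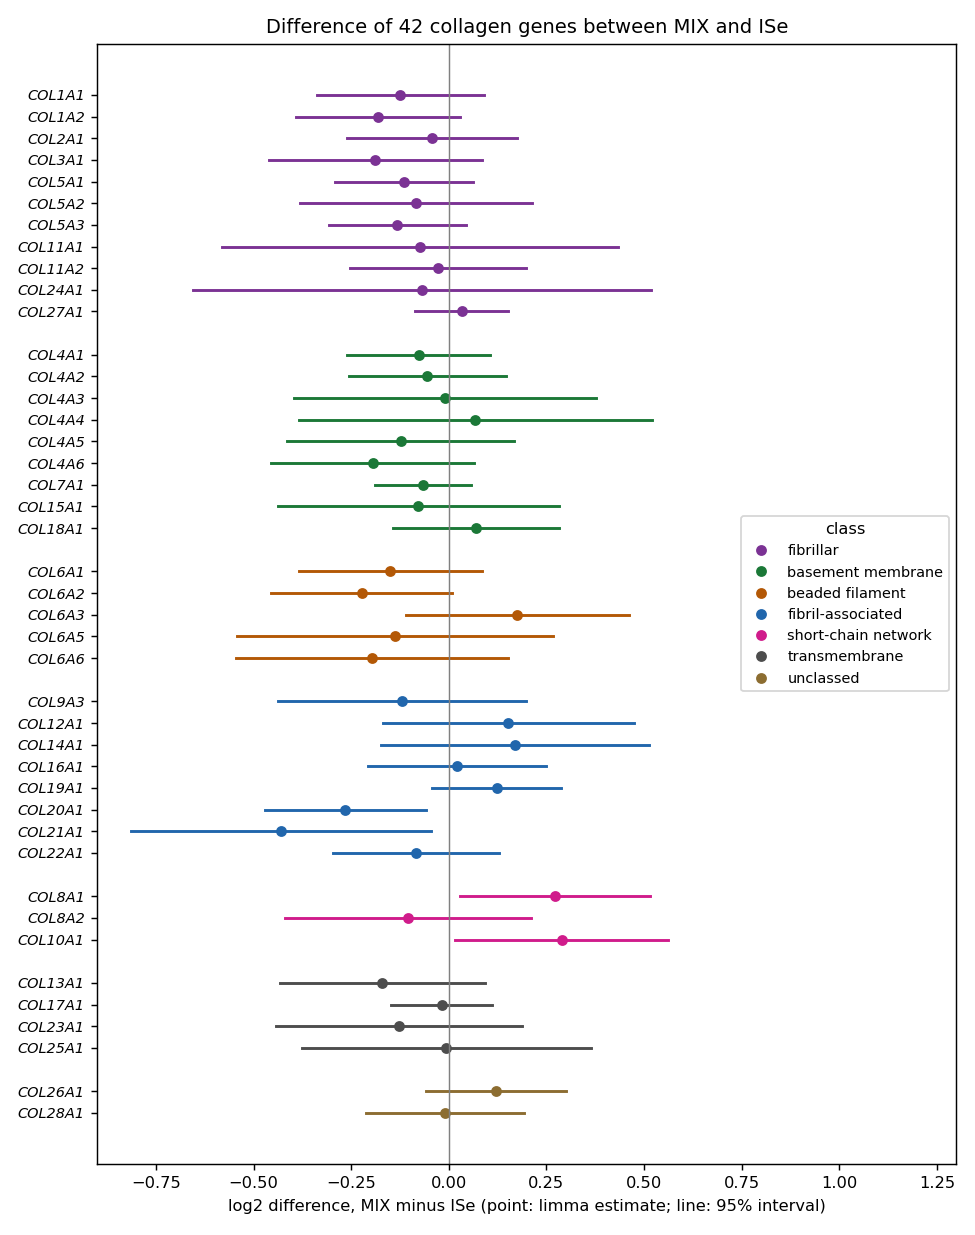
Log2 difference, MIX minus ISe, of the 42 collagen genes, by class, with the limma estimate as a point and its 95% interval as a line. The intervals exclude 0 for COL20A1 and COL21A1 on the lower side and for COL8A1 and COL10A1 on the higher side, before adjustment for the number of probesets.

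Most fibrillar chains had lower means in MIX, by small amounts that did not pass the test. The mean was lower in MIX for 10 of the 11, against 49.6% of all probesets, the exception being COL27A1 at 0.03 ± 0.05 (log2 difference ± SE). The median was -0.08 log2, with 0 genes at an unadjusted p under 0.05. Several of these chains varied together, so the 10 are not all separate observations. COL2A1, COL11A1, COL11A2 and COL24A1 changed sign in some fits with 1 array left out. In the lists of array values that follow, MIX values are in the order MIX 1, 8, 9, 10 and 11, and ISe values in the order ISe 2, 3, 5, 6 and 7. COL1A1, the major chain of type I collagen, measured 12.40, 12.04, 12.18, 12.12 and 11.94 in MIX, against 12.05, 12.30, 12.18, 12.39 and 12.38 in ISe. The highest and the lowest of the 10 values were both MIX samples (MIX 1 and MIX 11), so the groups overlapped throughout. The fold of MIX over ISe was 0.92, with a 95% interval of 0.79 to 1.06.

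COL1A2, the second chain of type I, measured 12.04, 11.72, 11.89, 11.80 and 11.60 in MIX, against 11.77, 12.02, 11.96, 12.16 and 12.07 in ISe. Of the MIX samples, only MIX 1 lay above the ISe mean of 11.99. The difference of -0.18 ± 0.10 log2 had an unadjusted p of 0.0828 and an exact permutation p of 0.111. COL3A1, the chain of type III collagen, which mixes with type I in pliable tissues, measured 12.26, 11.88, 11.97, 11.93 and 11.61 in MIX, against 11.80, 12.14, 12.11, 12.30 and 12.24 in ISe. It ranked the samples much as COL1A1 did, with MIX 11 lowest and ISe 6, MIX 1 and ISe 7 at the top, and differed by -0.19 ± 0.12 log2.

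Type V collagen starts fibrils and limits their width. COL5A1 measured 9.60, 9.27, 9.42, 9.41 and 9.29 in MIX, against 9.40, 9.66, 9.39, 9.60 and 9.52 in ISe, a difference of -0.12 ± 0.08 log2. Its second probeset had -0.07 ± 0.10. COL5A2 measured 9.23, 8.64, 8.86, 8.81 and 8.50 in MIX, against 8.57, 8.99, 8.89, 9.05 and 8.97 in ISe. Here too MIX 1 was highest and MIX 11 lowest, so that the 0.72 log2 between these 2 MIX samples exceeded the group difference of -0.08 ± 0.13. COL5A3, the third chain, followed another order: it measured 6.77, 6.64, 6.83, 6.83 and 6.78 in MIX, against 6.83, 6.78, 7.17, 6.83 and 6.91 in ISe, with ISe 5 highest.

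Of the chains best known from cartilage and bone, COL11A1 and COL24A1 varied most. COL24A1 ran from 5.97 to 7.56 in MIX and from 6.33 to 7.08 in ISe, and its SD over the 10 arrays, 0.46 log2, was the highest of the 42 genes, against a median of 0.15 over all probesets. COL11A1 ran from 6.52 to 7.74 in MIX and from 6.71 to 7.62 in ISe, with an SD of 0.40. Both were highest in MIX 1 and lowest in MIX 11, the samples at the ends of the type I order. COL2A1 and COL11A2, by contrast, averaged under 6.0 and had differences of -0.04 ± 0.10 and -0.03 ± 0.10 log2.

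**Figure D2:**
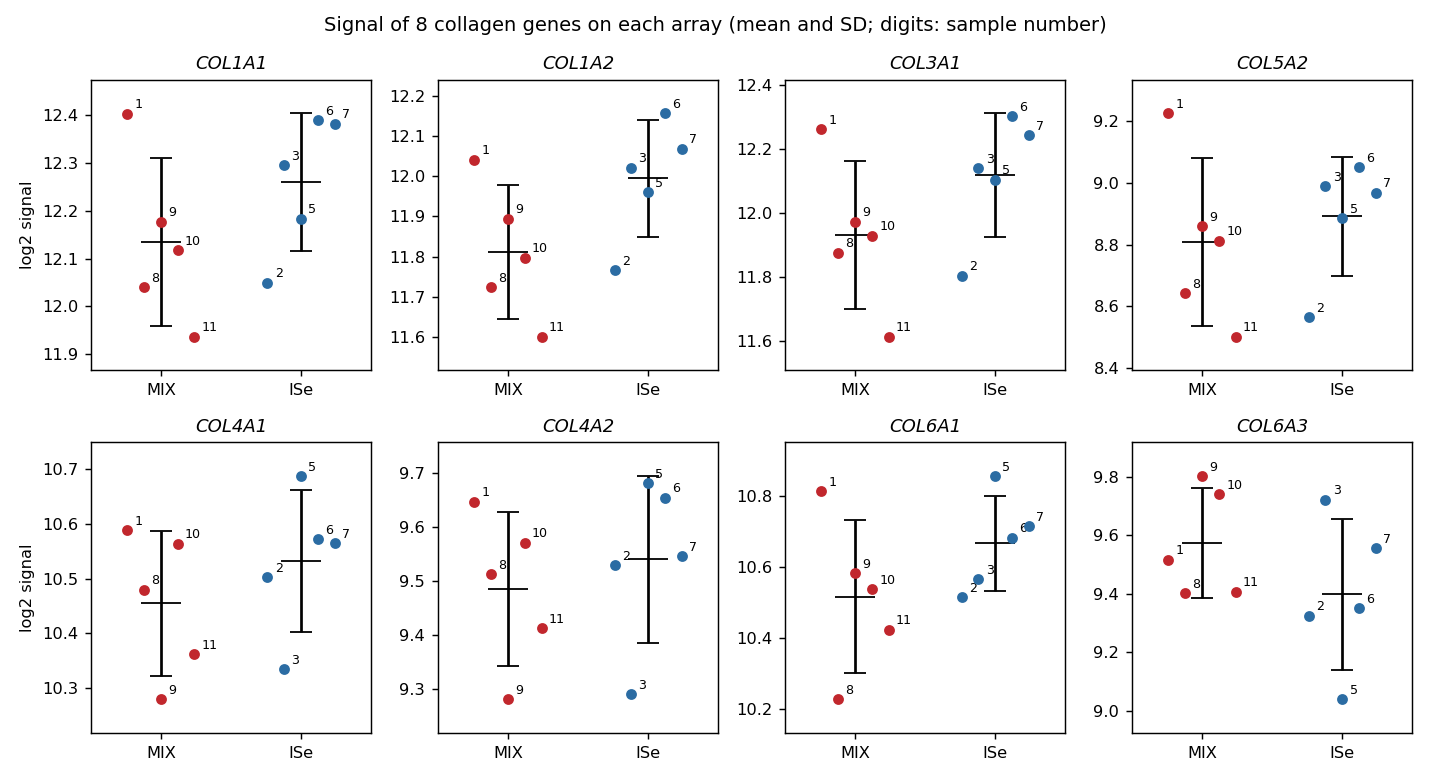
Log2 signal of 8 collagen genes on each array, with MIX in red and ISe in blue, the mean as a bar and the SD as whiskers, and sample numbers beside the points. In COL1A1, COL1A2, COL3A1 and COL5A2 the sample MIX 11 is lowest and MIX 1 is among the 3 highest, while COL6A3 orders the samples differently from COL6A1.

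Several fibrillar chains put the samples in a common order. Chains of other classes shared it in part. COL6A2 had r = 0.84 with COL1A2 and 0.81 with both COL1A1 and COL3A1. With COL1A1, COL6A1 had r = 0.71 and COL4A5 r = 0.70. MIX 11 gave the lowest value of 6 of the 11 fibrillar genes (COL1A1, COL1A2, COL3A1, COL5A2, COL11A1 and COL24A1), whereas it was lowest for 8.63% of all probesets. MIX 1 gave the highest value of 4 (COL1A1, COL5A2, COL11A1 and COL24A1), and it was highest for 13.4% of all probesets. The mean deviation of the 11 genes was 0.20 in MIX 1, -0.08 in MIX 8, -0.03 in MIX 9, -0.10 in MIX 10 and -0.22 in MIX 11. It was -0.11 in ISe 2, 0.06 in ISe 3, -0.03 in ISe 5, 0.19 in ISe 6 and 0.11 in ISe 7. The 2 ends of the series lay in the MIX group, so the spread within MIX (SD 0.16) was larger than the difference of the group means (-0.09). The fibroblast list mean ran from -0.15 (MIX 10) to 0.14 (MIX 1) in MIX, with MIX 11 at -0.04, and from -0.16 (ISe 2) to 0.16 (ISe 3) in ISe. Its part in the fibrillar order was not tested.

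Leaving out MIX 1 changed the comparison. The fibrillar median was then -0.19 log2, and 8 collagen genes had an unadjusted p under 0.05 with a lower mean in MIX, against 2.07% of all probesets in that fit: COL1A2, COL3A1, COL4A5, COL4A6, COL6A1, COL6A2, COL20A1 and COL21A1. None passed after adjustment. Some of these genes varied together (r = 0.98 for COL1A2 and COL3A1, 0.97 for COL6A1 and COL6A2). The 8 are therefore not all separate observations. Without MIX 11, the low end of the fibrillar order, the fibrillar median was -0.08 log2. In that fit 2 collagen genes were lower at an unadjusted p under 0.05. COL1A2 was then at -0.13 and COL3A1 at -0.11 log2, while COL11A1 and COL24A1 were higher in MIX, at 0.05 and 0.10. Without MIX 1 and MIX 8 together the fibrillar median was -0.17 and 4 genes were lower at that p, against 2.43% of all probesets. Without ISe 2 the median was -0.15 and 4 genes were lower (all probesets 1.96%), and without ISe 5 it was -0.14. The count was 1 without ISe 6, with a median of -0.04 (all probesets 1.69%), and 1 without ISe 7 (all probesets 1.89%). Array quality weights gave a median of -0.14 and 4 genes (all probesets 2.44%).

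Correlation between chains that share a trimer or a fibril was computed over the 10 arrays for 11 measured pairs, with permutation p-values adjusted over the 11. COL1A1 and COL1A2 had Pearson's r = 0.97 and Spearman's rho = 0.96 (permutation p = 1e-05, the smallest that the permutations can give, adjusted p = 2.75e-05), and r = 0.97 without the 2 arrays farthest from the median, MIX 1 and MIX 11. COL1A1 and COL3A1 had r = 0.98 and rho = 0.98 (permutation p = 1e-05, adjusted p = 2.75e-05), or 0.97 without the same 2 arrays. The type I and type III transcripts thus kept close order over a range of 0.47 log2 in COL1A1. Of all other probesets with a symbol, the 3 genes closest to COL1A1 by r were COL3A1, COL1A2 and COL5A2, a ranking looked at after the values were seen. PON3, which is no collagen, followed at r = 0.94, just behind COL5A2 at 0.95.

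COL3A1 and COL5A2, which lie side by side on chromosome 2, had r = 0.94 and rho = 0.98 (permutation p = 4e-05, adjusted p = 8.8e-05), and 0.92 without MIX 11 and ISe 6. The type V chains COL5A1 and COL5A2, which lie apart, had r = 0.85 and rho = 0.84 (permutation p = 0.00257, adjusted p = 0.00404), and 0.85 without MIX 1 and ISe 3. The type XI chains did not follow each other, with r = -0.48 and rho = -0.53 for COL11A1 and COL11A2 (permutation p = 0.159, adjusted p = 0.194), which did not pass, and r = -0.33 without MIX 1 and ISe 6. Among the 55 pairs of fibrillar chains, 14 had r above 0.8 (25.5%), against 0.454% of all pairs of probesets. The median over the 55 pairs was 0.16, and COL2A1, COL5A3, COL11A2 and COL27A1 stood outside the group that varied together. Both genes of a pair were read from the same 10 RNA samples, so anything that shifts a whole sample enters both.

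**Figure D3:**
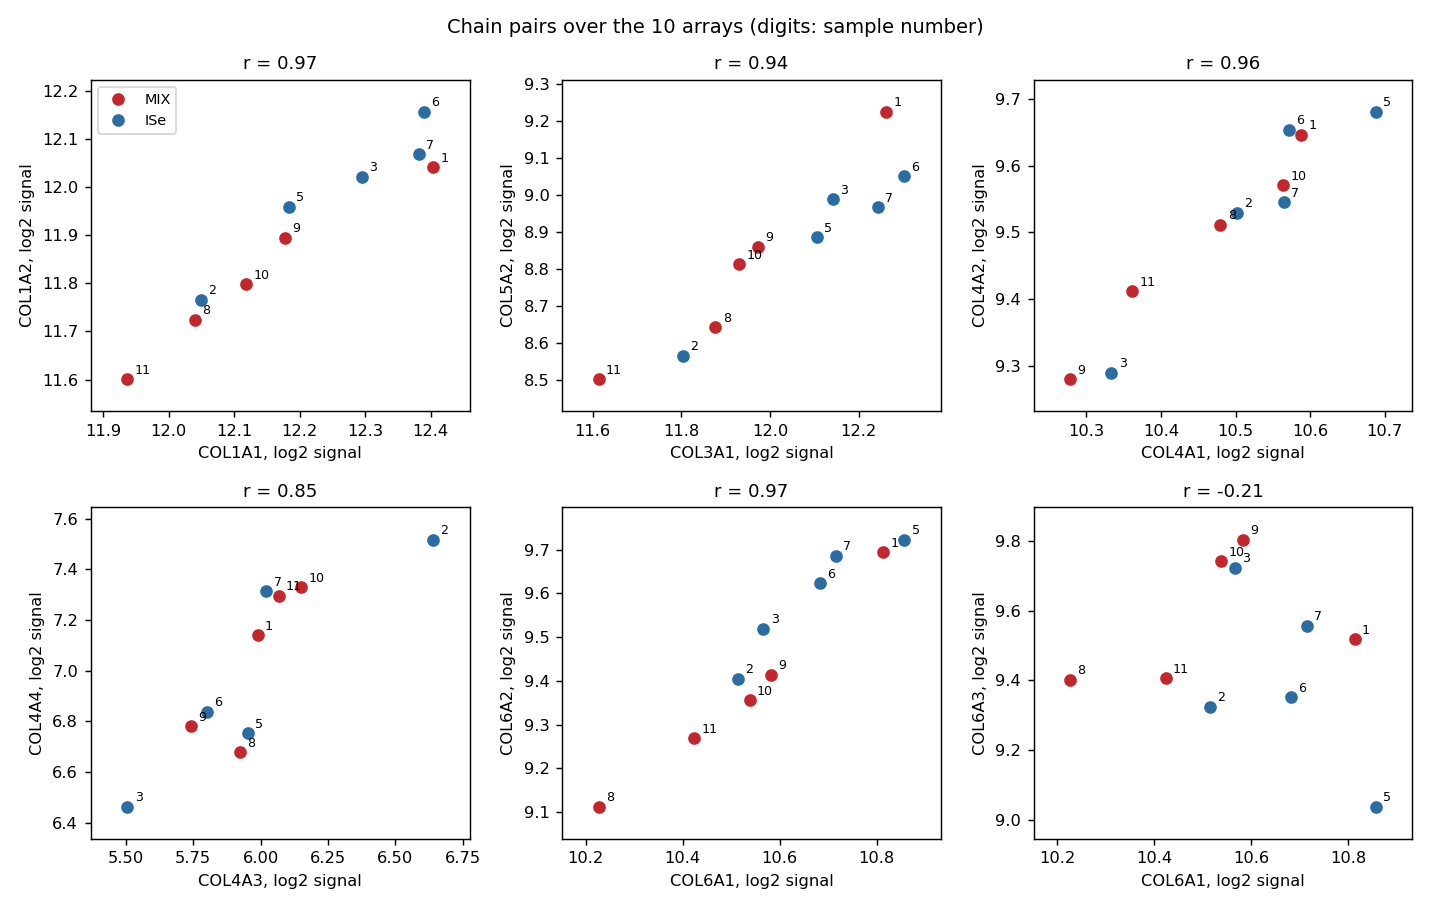
Log2 signal of 6 pairs of collagen chains over the 10 arrays, with MIX in red, ISe in blue, sample numbers beside the points and Pearson's r above each panel. COL1A1 with COL1A2, COL4A1 with COL4A2 and COL6A1 with COL6A2 lie close to a line (r from 0.96 to 0.97), while COL6A3 does not follow COL6A1 (r = -0.21).

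The basement membrane chains did not differ between MIX and ISe past the threshold. The mean was lower in MIX for 7 of the 9, the median difference was -0.07 log2 and 0 had an unadjusted p under 0.05. That median was -0.13 without ISe 3, and -0.03 without MIX 8 or MIX 9 and -0.02 without ISe 5. COL4A1, which with COL4A2 makes the type IV network found under most endothelium, measured 10.59, 10.48, 10.28, 10.56 and 10.36 in MIX, against 10.50, 10.33, 10.69, 10.57 and 10.57 in ISe. COL4A2 measured 9.65, 9.51, 9.28, 9.57 and 9.41 in MIX, against 9.53, 9.29, 9.68, 9.65 and 9.55 in ISe. MIX 9 and ISe 3 were the lowest samples for both genes and ISe 5 the highest, an order unlike that of the fibrillar chains. The folds of MIX over ISe were 0.95 (95% interval 0.83 to 1.08) for COL4A1 and 0.96 (0.84 to 1.11) for COL4A2. Endothelial markers had a median difference of 0.16 log2 in the same samples, with ISe 7 lowest at a list mean of -0.20 and MIX 10 highest at 0.26.

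COL4A1 and COL4A2 had r = 0.96 and rho = 0.98 (permutation p = 1e-05, adjusted p = 2.75e-05), and 0.93 without MIX 9 and ISe 3. The gene closest to COL4A1 by r was not COL4A2 but EHD2 (r = 0.98), and HADHB came after COL4A2 at 0.95. COL4A3 and COL4A4, which with COL4A5 form the network known from the kidney filter, had r = 0.85 and rho = 0.89 (permutation p = 3.2e-04, adjusted p = 5.87e-04), and 0.78 without ISe 2 and ISe 3. COL4A3 ran from 5.74 to 6.15 in MIX and from 5.50 (ISe 3) to 6.64 (ISe 2) in ISe, and COL4A4 from 6.68 to 7.33 in MIX and from 6.46 (ISe 3) to 7.52 (ISe 2) in ISe. Thus ISe 2 and ISe 3 lay at opposite ends for both genes, and the spread within ISe (SD 0.42 and 0.43) was far wider than the differences of -0.01 ± 0.18 and 0.07 ± 0.20 log2.

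COL4A5 and COL4A6, neighbours on the X chromosome, had r = 0.81 and rho = 0.71 (permutation p = 0.0063, adjusted p = 0.00866). That relation rested on MIX 1 and MIX 8, without which r was 0.59 (exact permutation, adjusted p = 0.164). With group means subtracted its r was 0.80 (exact permutation, adjusted p = 0.0542). COL4A5 ran from 6.13 (MIX 8) to 7.01 (MIX 1) in MIX and from 6.59 to 6.72 in ISe, so the MIX samples spanned 0.88 log2 around a narrow ISe group. COL4A6 ran from 5.12 (MIX 8) to 5.77 in MIX and from 5.57 to 5.86 in ISe, a difference of -0.20 ± 0.12.

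Types XV and XVIII join basement membranes to the matrix beneath, and a fragment of type XVIII, endostatin, is known as an inhibitor of vessel growth. COL15A1 measured 8.76, 8.78, 9.11, 9.30 and 8.98 in MIX, against 9.18, 8.88, 9.62, 8.81 and 8.84 in ISe. ISe 5 was highest, and the difference of -0.08 ± 0.16 log2 was below the spread in either group (SD 0.23 in MIX and 0.34 in ISe). COL18A1 measured 8.81, 8.48, 8.31, 8.40 and 8.28 in MIX, against 8.43, 8.26, 8.40, 8.42 and 8.43 in ISe. Only MIX 1 stood above the rest, and the difference was 0.07 ± 0.10, or -0.02 without MIX 1. COL7A1, the chain of the anchoring fibrils of skin, averaged 5.20 ± 0.05 in MIX and 5.26 ± 0.08 in ISe (log2 signal, SD, n = 5 each), below the array medians.

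**Figure D4:**
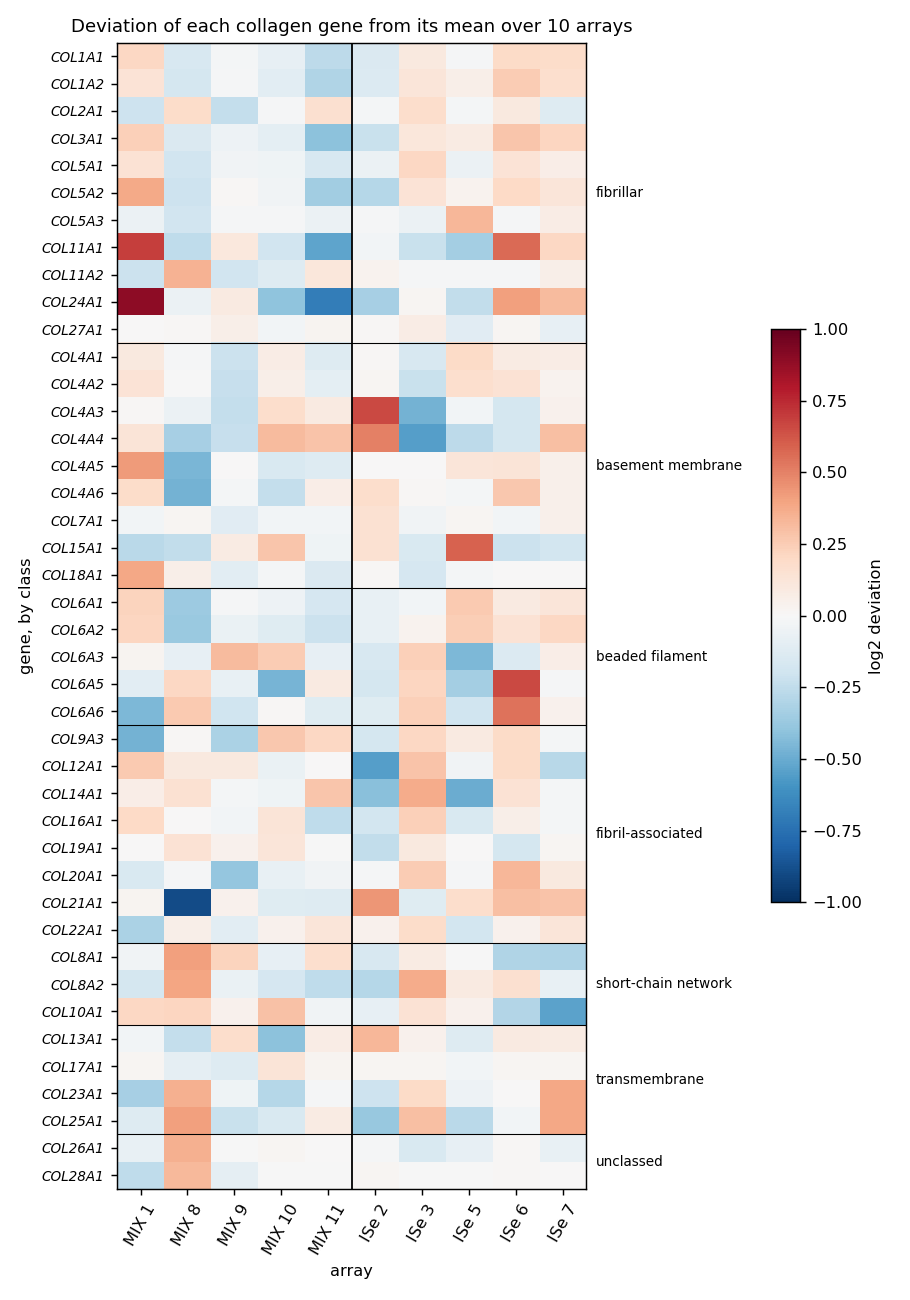
Deviation of each of the 42 collagen genes from its own mean over the 10 arrays, in log2 units by colour, with MIX arrays left of ISe arrays and genes in rows by class. COL24A1 and COL11A1 are high in MIX 1 and low in MIX 11, COL4A3 and COL4A4 are high in ISe 2 and low in ISe 3, and COL21A1 is low in MIX 8.

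Type VI collagen split between its chains. COL6A1 measured 10.81, 10.23, 10.58, 10.54 and 10.42 in MIX, against 10.51, 10.57, 10.86, 10.68 and 10.72 in ISe. COL6A2 measured 9.69, 9.11, 9.41, 9.36 and 9.27 in MIX, against 9.41, 9.52, 9.72, 9.62 and 9.69 in ISe. In both, MIX 8 was lowest and ISe 5 highest, and apart from MIX 1 the MIX samples lay below the ISe mean. The differences were -0.15 ± 0.11 and -0.22 ± 0.11 log2, the second with an unadjusted p of 0.0583 and an exact permutation p of 0.0952. COL6A3, the long chain that completes the trimer, measured 9.52, 9.40, 9.80, 9.74 and 9.41 in MIX, against 9.32, 9.72, 9.04, 9.35 and 9.56 in ISe. Its lowest sample was ISe 5, the highest for COL6A1, and its difference was 0.18 ± 0.13.

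COL6A1 and COL6A2 had r = 0.97 and rho = 0.98 (permutation p = 1e-05, adjusted p = 2.75e-05), and 0.94 without MIX 8 and ISe 5. Each was the closest of all probesets with a symbol to the other, with LSM3 next for COL6A1 at r = 0.96. For COL6A1 and COL6A3, r was -0.21 and rho -0.07 (permutation p = 0.565, adjusted p = 0.565), and r was -0.001 without MIX 8 and ISe 5. The chains COL6A5 and COL6A6, which can take the place of the long chain in human and mouse tissue, had differences of -0.14 ± 0.18 and -0.20 ± 0.16 log2. Both were highest in ISe 6, at 6.34 and 5.35.

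Of the fibril-associated chains, which sit on the surface of fibrils, 4 were higher and 4 lower in MIX, and the 2 with an unadjusted p under 0.05 were both lower. COL12A1 measured 11.01, 10.85, 10.84, 10.68 and 10.75 in MIX, against 10.20, 11.04, 10.71, 10.94 and 10.47 in ISe. COL14A1 measured 8.83, 8.91, 8.73, 8.71 and 9.03 in MIX, against 8.34, 9.12, 8.26, 8.91 and 8.73 in ISe. For both genes the MIX samples lay within the range of the ISe samples, which spread wider (SD 0.34 and 0.37 in ISe, 0.12 and 0.13 in MIX). Their differences were 0.15 ± 0.15 and 0.17 ± 0.16 log2. Leaving out 1 array, that of COL12A1 ran from 0.03 (without ISe 2) to 0.24 (without ISe 3) and that of COL14A1 from 0.07 (without ISe 5) to 0.28 (without ISe 3). ISe 2 was low for both genes. The fibroblast list mean was -0.15 in MIX 10 and ISe 5 and -0.16 in ISe 2, and its part was not tested.

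COL20A1 measured 5.29, 5.43, 5.05, 5.36 and 5.41 in MIX, against 5.43, 5.69, 5.43, 5.77 and 5.54 in ISe. The highest MIX value, in MIX 8, equalled the lowest of ISe, so the groups touched without crossing. The fold of MIX over ISe was 0.83 (95% interval 0.72 to 0.96, unadjusted p = 0.0167, adjusted p = 0.941), with an exact permutation p of 0.0238. The signal lay below the array medians, where array differences can be compressed, which was not tested here. The unadjusted p stayed under 0.05 in 19 of 19 alternative settings.

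COL21A1, a chain found in vessel walls in human tissue, measured 6.34, 5.43, 6.36, 6.20 and 6.18 in MIX, against 6.76, 6.19, 6.49, 6.62 and 6.61 in ISe. MIX 8 lay apart below the other samples, and ISe 3 lay among the MIX values. Its fold was 0.74 (0.57 to 0.97, unadjusted p = 0.0312, adjusted p = 0.941), with an exact permutation p of 0.0397. It kept an unadjusted p under 0.05 in 15 of 19 settings, losing it without ISe 2, ISe 6 or ISe 7 and in a linear model without moderation.

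COL9A3 (-0.12 ± 0.14), COL16A1 (0.02 ± 0.10), COL19A1 (0.12 ± 0.08) and COL22A1 (-0.08 ± 0.10, log2 difference ± SE) completed this class. COL19A1 measured 3.96, 4.09, 3.99, 4.07 and 3.95 in MIX, against 3.70, 4.05, 3.96, 3.78 and 3.97 in ISe, levels near the low end of the array.

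The short-chain collagens held the 2 genes with a higher mean in MIX at an unadjusted p under 0.05. COL8A1, which builds lattices in vessel walls and under corneal endothelium, measured 7.31, 7.75, 7.56, 7.25 and 7.51 in MIX, against 7.18, 7.42, 7.34, 7.04 and 7.03 in ISe. MIX 8 was highest, and ISe 3 and ISe 5 lay above MIX 1 and MIX 10. The fold was 1.21 (1.02 to 1.43, unadjusted p = 0.0317, adjusted p = 0.941), and the exact permutation p was 0.0556. That unadjusted p rose above 0.05 in 8 of 19 settings, among them without MIX 8, MIX 9, MIX 11, ISe 2, ISe 6 or ISe 7. Its partner COL8A2 had -0.10 ± 0.14, and the pair had r = 0.35 and rho = 0.33 (permutation p = 0.316, adjusted p = 0.348), or r = -0.05 without MIX 8 and ISe 7.

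COL10A1, known from growth plate cartilage, measured 3.74, 3.76, 3.58, 3.83 and 3.51 in MIX, against 3.45, 3.68, 3.58, 3.25 and 3.01 in ISe. All these values are far below the array medians, so the fold of 1.22 (1.01 to 1.48, unadjusted p = 0.0394, adjusted p = 0.941; exact permutation p = 0.0714) is a difference near background. It passed an unadjusted 0.05 in 9 of 18 settings, and not without MIX 1, MIX 8, MIX 10, ISe 2, ISe 6 or ISe 7.

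**Figure D5:**
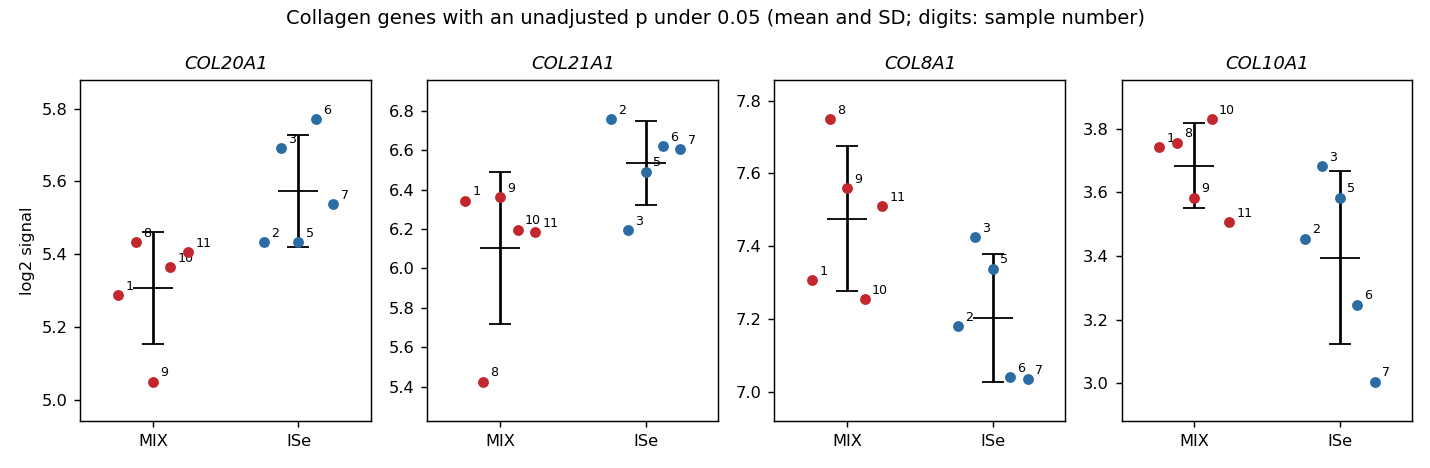
Log2 signal on each array of the 4 collagen genes with an unadjusted p under 0.05, with MIX left of ISe, the mean as a bar and the SD as whiskers. The groups of COL21A1, COL8A1 and COL10A1 overlap, and those of COL20A1 share the value 5.43.

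The membrane-spanning chains all had lower means in MIX, with differences from -0.17 to -0.006 log2 and 0 of 4 at an unadjusted p under 0.05. COL13A1, of cell-matrix junctions, was at -0.17 ± 0.12, COL17A1, of hemidesmosomes, at -0.02 ± 0.06, COL23A1 at -0.13 ± 0.14 and COL25A1 at -0.01 ± 0.17 (log2 difference ± SE). COL26A1, described in mouse testis and ovary, measured 5.66, 6.08, 5.72, 5.75 and 5.74 in MIX, against 5.71, 5.58, 5.65, 5.74 and 5.66 in ISe. Its difference of 0.12 ± 0.08 came with 1 high sample, MIX 8. COL28A1 was at -0.01 ± 0.09.

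How large a difference these data could still hide varied by class. The 95% interval of the fold lay inside 0.8 to 1.25 for 15 of the 42 genes: 5 fibrillar, 4 basement membrane and 6 others. Over all 42 the bounds reached 0.57 (COL21A1) and 1.48 (COL10A1). Mean signal was below the array medians for 16 of the 42, 2 of them fibrillar. At such levels array differences can be compressed, and a tight interval may say less about the transcript, which was not tested.

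Genes that make and finish collagen were set beside the chains. Of 33 measured, 27 had a lower mean in MIX, against 49.6% of all probesets. All were read from the same 10 samples, so the 27 may not be separate observations. The median was -0.07 log2, against 0.001 over all probesets. At an unadjusted p under 0.05 there were 3, all lower in MIX, against 2.12% of all probesets, and 0 passed after adjustment over all probesets. LOXL4, a lysyl oxidase that cross-links collagen outside the cell, was at 6.13 ± 0.34 in MIX and 6.54 ± 0.16 in ISe (log2 signal, SD, n = 5 each), a fold of 0.75. P3H4, a partner of the lysyl hydroxylase in the endoplasmic reticulum, averaged 7.58 ± 0.14 in MIX and 7.83 ± 0.17 in ISe, and FKBP10, a prolyl isomerase of collagen folding, 8.43 ± 0.15 in MIX and 8.64 ± 0.11 in ISe. PPIB, the isomerase cyclophilin B, was at -0.09 ± 0.05 (log2 difference ± SE). Per array, the list mean was lowest in MIX 8 (-0.13) and MIX 11 (-0.11) and highest in ISe 7 (0.11), and MIX 8 was also the array lowest in the dividing cell list. MIX 1 and MIX 9, both at 0.04, lay above ISe 2 (-0.06) and ISe 3 (0.02).

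Collagen receptors had higher means in MIX for 8 of 10, with a median of 0.06 log2 and 0 at an unadjusted p under 0.05. DDR1, a receptor tyrosine kinase for collagen, was at 0.18 ± 0.08, and ITGA10, ITGA1 and GP6 at 0.17 ± 0.13, 0.09 ± 0.09 and 0.07 ± 0.08. Proteoglycans and glycoproteins that bind fibrils or basement membranes were split, with 15 of 27 higher in MIX, a median of 0.01 and 0 at an unadjusted p under 0.05. NID2, which ties type IV collagen to laminin, was at -0.21 ± 0.10, AGRN at 0.11 ± 0.05, KERA at 0.24 ± 0.12 and PRELP at 0.37 ± 0.20 (log2 difference ± SE). KERA averaged 2.86 in MIX and 2.62 in ISe, far below the array medians, so its difference is near background.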

How the data were processed

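Per the labels, total RNA was extracted from frozen luteal tissue with TRIzol, fragmented, biotin-labelled and hybridised to Affymetrix arrays. The values deposited by the authors were read as log2 signal per probeset, from 0.54 to 14.17. The submitters' processing notes list GCOS 1.2 and Partek without saying what each did, and how background was corrected and arrays were normalised is not given in the sources used here. On 38.7% of probesets, 2 or more arrays hold exactly the same value, as do 12 of the 42 collagen genes. The platform annotation names 18457 probesets by 1 symbol, 688 by several and 7628 by none. Of the collagen genes, 39 had an Entrez identifier with that symbol in the current cattle table and 3 were matched by symbol alone.

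Groups came from sample titles. MIX and ISe were compared with lmFit and eBayes (limma 3.58.1, R 4.3.3) over 19145 probesets, two-sided, with Benjamini-Hochberg adjustment at 0.05. The fit was run on simulated data with added differences and noise drawn independently for each probeset. Such data lack variation that many genes of a sample share, so the run does not cover it. Single genes were also tested by exact permutation over the 252 splits of 5 against 5 (smallest p 0.00794), and chain pairs with 100000 permutations, or exactly where arrays were left out or group means subtracted. Members, lists and pairs were chosen with earlier results of these data known. Array values are given for 14 fixed genes and for the 5 with the smallest p in each direction, and companion genes by smallest p. CYP11A1 and HSD3B1 fall outside this rule and were named as markers of the tissue, and COL2A1, COL11A1 and COL24A1 after their values were seen. Alternatives were other normalisation, centring, filtering, moderation, array weights, averaging probesets and leaving out arrays. STAR, MRC1, ACTA2, TOP2A, CCNB2 and P3H3 were not analysed here. Figures used matplotlib 3.10.9.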

Additional observations from a re-analysis of the deposited data

Results flagged for a closer look

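In 5 of 84 checks of a gene within a group, 1 sample stood apart from the other 4 by more than Dixon's 95% critical value for 5 samples, where chance alone gives about 4.2. Of these, 3 were in MIX 8. This array was extreme beyond the collagen genes: of all arrays it was most often the highest (17.5% of all probesets) and also most often the lowest. Its array quality weight, 0.498, was the lowest of any array. What part this had in the 3 values was not tested. COL21A1 was 5.43 in MIX 8, with the other MIX samples between 6.18 and 6.36. COL8A2 was 5.56 there, with the others between 4.91 and 5.10. COL26A1 was 6.08 there, with the others between 5.66 and 5.75. COL18A1 was 8.26 in ISe 3, with the other ISe samples between 8.40 and 8.43. COL17A1 was 5.48 in ISe 5, with the others between 5.525 and 5.529, of which 3 were exactly equal.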

How the results depend on the processing

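The count of collagen genes past the adjusted threshold was 0 in every alternative run. The 2 genes higher in MIX at an unadjusted p under 0.05 became 1 without the dimmest 25% of probesets (COL10A1 left the test), 1 with array quality weights, and 0 in a linear model without moderation or without MIX 1 and MIX 8. The 2 lower genes became 1 without moderation, 3 with trended moderation, 4 with array weights and 4 without MIX 1 and MIX 8. With 1 array left out, the higher count ran from 0 to 2, the lower count from 1 to 8, and genes with a higher mean from 11 to 17; 0 or 1 probeset passed the adjusted threshold, the 1 being no collagen, without MIX 8. Medians with 1 array left out ran from -0.19 to -0.04 log2 (fibrillar), -0.13 to -0.02 (basement membrane) and -0.10 to -0.02 (others). The 44 recomputed correlations covered 11 pairs, of which 8 had passed, and only those 8 could lose the threshold. For COL4A5 and COL4A6, the 2 arrays farthest from the median were MIX 1 and MIX 8, so 1 calculation counted in both settings. With that repeat counted, 3 correlations lost the threshold, all of COL4A5 and COL4A6 (r = 0.80 with group means subtracted, 0.59 without those arrays). The cause was not tested. No paired analysis was possible because MIX and ISe share no replicate number.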

Other observations

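Exactly equal values on several arrays touched 12 collagen genes. COL17A1 held 5.53 on MIX 1, ISe 2, ISe 3 and ISe 6, COL28A1 held 5.47 on MIX 10, MIX 11, ISe 3 and ISe 5, and COL5A3 held 6.83 on MIX 9, MIX 10, ISe 2 and ISe 6. The ISe SDs of COL17A1 (0.02) and COL28A1 (0.01) rest on such values. COL20A1 held 5.43 on MIX 8, ISe 2 and ISe 5, which is where its groups meet. None of the 8 chain pairs that passed contained a gene with 3 or more equal arrays.

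COL6A5 and COL6A6, neighbouring genes whose pair was looked at after the values were seen and so was not tested, had r = 0.73 over the 10 arrays. With it, the 6 measured pairs of neighbouring collagen genes had r between 0.73 and 0.97.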
